A study of Homo sapiens with 6 samples.

Results

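The genes described here are the Notch receptors NOTCH1, NOTCH2 and NOTCH3, the DNA-binding effector RBPJ, and the target genes HES1, HES4, HEY1, DTX1, NRARP and PTCRA. They were taken by gene symbol, and all 10 were found among the 59248 symbols of the deposited table. RNA was sequenced in bulk from 6 libraries of Jurkat cells, an established human line of T-cell acute lymphoblastic leukemia. The labels give 2 genotypes with 3 libraries each: overexpression of a splicing isoform of PDCD1, the gene of the inhibitory receptor PD-1, and vector. Both groups are called Jurkat KO-1 in the growth protocol, without a word on what was removed or whether they are 1 clone. Separate cultures are not named either, so a p-value covers only how much these libraries vary, and that variation could be technical.

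Notch receptors are cut by ADAM proteases and then by gamma-secretase when a ligand on a neighbouring cell binds them, and the freed intracellular part enters the nucleus. There it binds RBPJ together with a Mastermind protein and switches on target genes such as HES1, DTX1 and NRARP. In the thymus this pathway directs progenitors to the T-cell fate, and activating NOTCH1 mutations are common in T-cell acute lymphoblastic leukemia.

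The promoters of HES1 and HES4 are shown because both genes fell and both hold the core letters that RBPJ binds. The motif TGGGAA was searched on both strands in RefSeq promoter windows (build GRCh38.p14) that reach from 250 bases before to 50 bases after the annotated start, and no other motif was searched. Windows were found for 8 of the 10 genes, not for HEY1 and DTX1. HES1 held 2 matches, HES4 held 1, and 1 of the 5 windows of RBPJ held 2. NOTCH1, NOTCH2, NOTCH3, NRARP and PTCRA held none in these windows. Of all 35116 windows, 24.03% held at least 1 match and 3.796% at least 2. The stretches below are 30 bases long, 5′ to 3′ on the strand of the gene, with the matches in capitals.
HES1: agttactgTGGGAAagaaagttTGGGAAgt
HES4: ggcgagtgTGGGAAagaatgcggagccggg
The HES1 stretch lies at chr3:194136056-194136085 on the plus strand, and its matches start 84 and 70 bases before the gene's start. The HES4 stretch lies at chr1:1000152-1000181 on the minus strand, and its match starts 76 bases before the RefSeq start. GENCODE 29 ends HES4 on this strand at 1000172, so by that annotation most of the stretch lies inside the gene. Lined up on the first match, the stretches were identical at 17 of 30 positions. These include the letters of the match itself, which are the same by choice. A match is a run of letters and does not show that RBPJ was bound there in these cells.

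Libraries held 59911578 to 84220970 estimated counts. PDCD1 was at 14.6, 14.2 and 12.6 CPM in the overexpression libraries and at 0.241, 0.223 and 0.222 CPM in the vector libraries, so all libraries labelled overexpression were higher. This value is per gene and cannot tell the isoform from the usual transcript. CPM is the usual abundance unit, the estimated count scaled by the TMM-adjusted library size. All 14 T-cell markers were tested, and their summed level was 2983 to 3045 CPM in overexpression and 3082 to 3304 CPM in vector. Single markers differed more than the sum: 3 rose and 8 fell, with log2 fold changes of -2.57 for CD2 and -2.09 for CD7, both named after their values were seen. The summed B-cell markers were at 38.5 to 45.6 CPM in overexpression and 59.7 to 83.5 CPM in vector, with 4 of 10 at or under 12 estimated counts in every library, among them MS4A1 and PAX5. Summed myeloid markers were at 35.9 to 39.1 and 50.3 to 56.7 CPM, natural killer cell markers at 4.25 to 4.79 and 3.30 to 6.46 CPM, and epithelial and kidney line markers at 2.29 to 3.39 and 3.26 to 4.64 CPM. The myeloid markers ELANE and S100A8, the natural killer cell markers NCR1 and KIR2DL4 and the epithelial markers EPCAM and CDH16 were at 0 in all libraries. The part of other cells in the results was not tested, and in bulk RNA fewer cells of a type and less RNA per cell cannot be told apart. Vector replicate 2 stood apart from the other vector libraries on the second principal component, which held 12.06% of the variance. It was also the deepest library, so the changes of the 10 genes are given with and without it.

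NOTCH1 and NOTCH2 rose, and the target genes among these 10 that changed fell. Of the 10 genes, 2 passed the threshold upward (NOTCH1 and NOTCH2) and 5 downward (RBPJ, HES1, HES4, DTX1 and NRARP), by an edgeR quasi-likelihood test with an adjusted p under 0.05. NOTCH3, HEY1 and PTCRA did not pass. Without vector replicate 2, the counts were 2 higher and 6 lower, NOTCH3 being the addition. Among all 21055 genes tested, 46.1% passed, 22.6% upward and 23.4% downward; without that library 49.5% passed, 24.1% upward and 25.4% downward. The median log2 fold change of the 10 genes was -0.75, or -0.22 without that library, beside 0.02 over all genes tested in either case. The groups did not overlap for 8 of the 10 genes, against 58.7% of all genes tested. Without vector replicate 2 it was again 8 of the 10, against 69.1%. The share of all genes that passed was higher with a filter of 1 CPM and 50 estimated counts on average, 8791 of 14917. At that filter 2 of the 10 genes rose and 4 fell, and HEY1 and NRARP were not tested.

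**Figure D1:**
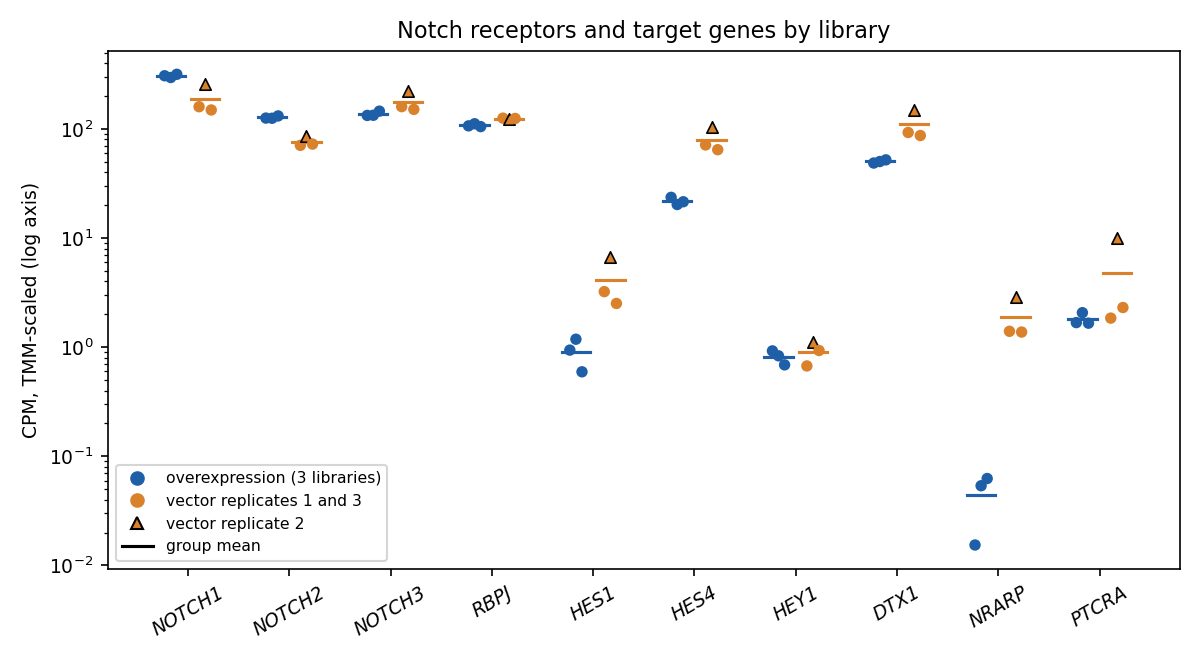
CPM of the 10 genes in each of the 6 libraries, on a log axis; circles and triangles are libraries, bars are group means, and triangles mark vector replicate 2. The overexpression libraries of NOTCH1 and NOTCH2 lie above all vector libraries and those of HES1, HES4, DTX1 and NRARP below them, while the triangle is the highest vector point for every gene but RBPJ.

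NOTCH1, the receptor gene most often mutated in this leukemia, was at 306, 295 and 316 CPM in overexpression and at 159, 259 and 149 CPM in vector. All overexpression libraries were higher, but vector replicate 2 lay much nearer to them than to the other vector libraries. The log2 fold change was 0.69 ± 0.19 (SE; edgeR adjusted p = 0.0160) and 0.98 ± 0.04 without vector replicate 2 (edgeR adjusted p = 4.37e-07). The call was lost without overexpression replicate 1 (edgeR adjusted p = 0.0523), overexpression replicate 3 (0.0613) or vector replicate 1 (0.0586), in a range of adjusted p over all alternatives from 7.69e-08 to 0.0613. Each of these fits kept vector replicate 2. NOTCH1 spans chr9:136494433-136545786 on the minus strand (hg38, GENCODE 29) and overlaps an antisense RNA gene and MIR4673 there. The strand setting of the counts is not given in the sources used here, so reads from the antisense gene cannot be told apart.

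NOTCH2, a receptor that answers to the same ligands, was at 125, 125 and 131 CPM in overexpression and at 70.6, 85.6 and 72.5 CPM in vector. The groups were well apart and the vector libraries differed little. Its log2 fold change was 0.74 ± 0.08 (SE; edgeR adjusted p = 0.000138), or 0.82 ± 0.04 without vector replicate 2 (edgeR adjusted p = 7.83e-07), and it was called under all 16 alternatives. NOTCH2 shares near-identical sequence with the NOTCH2NL genes, which arose from its first exons, so its count is uncertain to the extent that reads were split among them. All 4 NOTCH2NL genes in the table were higher as well. NOTCH2NLA was at 23.2 ± 1.62 CPM in overexpression and 10.5 ± 1.31 CPM in vector (SD, n = 3), and the log2 fold changes of the 4 genes ran from 0.94 for NOTCH2NLC to 1.68 for NOTCH2NLR.

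NOTCH3, which is both a receptor and a reported target of NOTCH1 in T-cell leukemia, was at 133, 133 and 145 CPM in overexpression and at 160, 222 and 151 CPM in vector. Every overexpression library was lower, although the highest of them and the lowest vector library were close. Its log2 fold change was -0.37 ± 0.13 (SE; edgeR adjusted p = 0.0509), just outside the threshold. Without vector replicate 2 the change was smaller, -0.19 ± 0.05, and passed (edgeR adjusted p = 0.0123). Over the alternatives NOTCH3 passed in 7 of 16, with adjusted p from 0.00502 to 0.145.

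Levels of different genes can be compared only per transcript length, here as CPM per kb of the longest GENCODE transcript. On that scale NOTCH1 was at 32.9 in overexpression, above NOTCH3 at 15.8 and NOTCH2 at 11.2. In vector, NOTCH3 was at 20.5 and NOTCH1 at 20.3, overlapping over the libraries, and NOTCH2 was at 6.69. That overlap rests on vector replicate 2, since without it NOTCH3 was at 17.9 and NOTCH1 at 16.6 with no overlap. As a share of the summed level of the 3 receptors per length, NOTCH1 made up 54.6% to 55.6% in the overexpression libraries and 41.0%, 45.6% and 40.2% in the vector libraries. NOTCH3 made up 25.8% to 26.9% and 42.1% to 44.1%. So the receptor transcripts were mostly NOTCH1 in overexpression and about evenly NOTCH1 and NOTCH3 in vector.

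RBPJ, the DNA-binding protein through which all Notch receptors act, was at 106, 111 and 105 CPM in overexpression and at 125, 123 and 124 CPM in vector. It was the steadiest of the 10 genes, and vector replicate 2 did not differ from the other vector libraries. The fall was small: the log2 fold change was -0.21 ± 0.04 (SE; edgeR adjusted p = 0.00546), or -0.23 ± 0.04 without vector replicate 2 (edgeR adjusted p = 0.00101). It was called under all 16 alternatives, and with each library's trend on GC content and transcript length taken out it was -0.14 (edgeR adjusted p = 0.0393).

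HES4, a basic helix-loop-helix repressor gene of the Hairy and Enhancer of split family, was at 23.6, 20.3 and 21.5 CPM in overexpression and at 71.2, 104 and 64.4 CPM in vector. No overexpression library came near any vector library. HES4 had a log2 fold change of -1.87 ± 0.17 (SE; edgeR adjusted p = 7.44e-05), or -1.65 ± 0.07 without vector replicate 2 (edgeR adjusted p = 4.45e-07). Without that trend it was -1.51; at 73.9% its transcript has the highest GC content of the 10 genes. HES1, the best known Notch target and a repressor of the same family, was lower in level: 0.939, 1.18 and 0.594 CPM in overexpression and 3.23, 6.75 and 2.51 CPM in vector. These stand for 38 to 88 and 170 to 545 estimated counts, and the groups did not overlap. Its log2 fold change was -2.20 ± 0.42 (SE; edgeR adjusted p = 0.00335), or -1.67 ± 0.31 without vector replicate 2 (edgeR adjusted p = 0.00183).

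HEY1, which encodes a related repressor, was at 0.924, 0.833 and 0.688 CPM in overexpression and at 0.673, 1.12 and 0.932 CPM in vector. The groups overlapped. Its log2 fold change was -0.16 ± 0.29 (SE; edgeR adjusted p = 0.692), and 0.01 ± 0.32 without vector replicate 2, at 39 to 90 estimated counts per library.

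DTX1 encodes Deltex, a ubiquitin ligase that binds the intracellular part of Notch, and its gene is itself a target. It was at 48.6, 50.2 and 52.0 CPM in overexpression and at 92.6, 150 and 86.9 CPM in vector. The overexpression libraries were all lower and close to each other. The log2 fold change was -1.13 ± 0.19 (SE; edgeR adjusted p = 0.00170), or -0.85 ± 0.05 without vector replicate 2 (edgeR adjusted p = 1.67e-06). NRARP, a small ankyrin-repeat protein that is induced by Notch and dampens it, had 1, 4 and 4 estimated counts in overexpression and 81, 230 and 93 in vector. This is 0.0154, 0.0537 and 0.0626 CPM against 1.40, 2.85 and 1.38 CPM, so the transcript was near 0 in every overexpression library. NRARP had a fitted log2 fold change of -5.35 ± 0.54 (SE; edgeR adjusted p = 0.000121), or -4.92 ± 0.50 without vector replicate 2 (edgeR adjusted p = 5.03e-05). All overexpression values lay under the floor of 12 estimated counts, so the size of this fall is uncertain. The vector mean was 10.5 times the CPM that 12 estimated counts give in the overexpression libraries, or 7.79 times without vector replicate 2.

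PTCRA encodes the pre-T-cell receptor alpha chain, which pairs with the beta chain in immature thymocytes, and its enhancer responds to Notch. It was at 1.68, 2.07 and 1.66 CPM in overexpression and at 1.85, 10.0 and 2.31 CPM in vector. The groups overlapped, and 1 library, vector replicate 2, held nearly all of the difference. The log2 fold change was -1.40 ± 0.60 (SE; edgeR adjusted p = 0.0901), or -0.21 ± 0.23 without vector replicate 2 (edgeR adjusted p = 0.478). It passed under 1 of 16 alternatives, without vector replicate 1 (-1.78, edgeR adjusted p = 0.0341), with adjusted p from 0.0341 to 0.478.

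**Figure D2:**
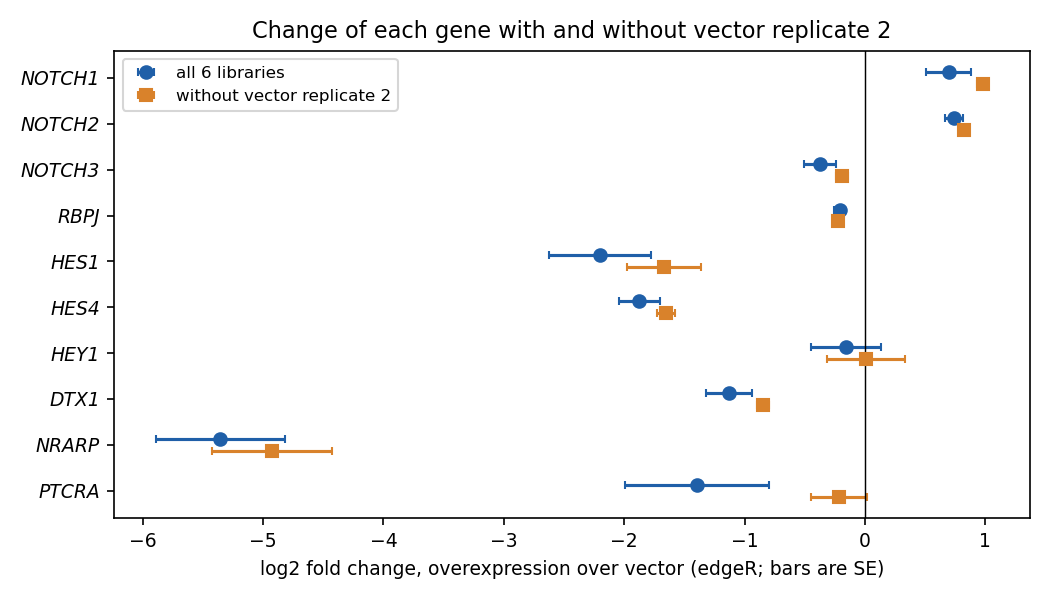
edgeR log2 fold change of the 10 genes (overexpression over vector, bars are SE) with all 6 libraries and without vector replicate 2. NOTCH1 moves from 0.69 to 0.98 and PTCRA from -1.40 to -0.21, while NOTCH2 and RBPJ change little.

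Per length, HES4 was the most abundant of the 10 transcripts in vector, at 76.6 CPM per kb, followed by DTX1 at 31.8. RBPJ at 20.8, NOTCH3 and NOTCH1 came next and overlapped each other over the libraries. DTX1 overlapped NOTCH3 and NOTCH1 as well, but not RBPJ, and without vector replicate 2 it overlapped none of them. Within each vector library DTX1 was above NOTCH3 and NOTCH1, at 26.8, 43.5 and 25.1 CPM per kb. There NOTCH3 was at 18.4, 25.6 and 17.4 and NOTCH1 at 17.1, 27.8 and 16. NOTCH2 at 6.69, PTCRA at 4.20, HES1 at 2.64 and NRARP at 1.06 followed, each overlapping its neighbour among these 4, and HEY1 at 0.395 was lowest. Within each vector library HES1 was nevertheless above NRARP. Without vector replicate 2, where PTCRA was at 8.92, PTCRA was at 1.85 and HES1 at 1.82, and of these neighbouring pairs only PTCRA and HES1 still overlapped. RBPJ, NOTCH3 and NOTCH1 did not overlap each other either without that library. In overexpression the order was NOTCH1 at 32.9, HES4 at 20.9, RBPJ at 18.0, NOTCH3 at 15.8, DTX1 at 14.5 and NOTCH2 at 11.2, with no overlap between neighbours. PTCRA at 1.60, HES1 at 0.574, HEY1 at 0.355 and NRARP at 0.0248 followed, and of these HES1 and HEY1 overlapped, although HES1 was above HEY1 within each overexpression library.

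Vector replicate 2 differed from the other vector libraries in several of these 10 genes, receptor and target genes alike, more than in most genes. Its CPM was at least 1.5 times that of the higher of the other vector libraries for 5 of the 10 genes (NOTCH1, HES1, DTX1, NRARP and PTCRA), against 7.49% of all 21055 genes tested. None of the 10 lay as far below the lower of those libraries, where 6.65% of all genes did. The fold of 1.5 was chosen after the values were seen, and this is a description of 1 library with no test. Against the mean of the other vector libraries its ratio was 4.84 for PTCRA, 2.35 for HES1, 2.06 for NRARP, 1.68 for NOTCH1 and 1.68 for DTX1. The ratio was 1.53 for HES4, 1.43 for NOTCH3, 1.39 for HEY1, 1.20 for NOTCH2 and 0.987 for RBPJ, with a median of 1.60 over the 10 genes and 1.00 over all genes tested. GC content moved with this library: over 5 equal classes of genes by GC content, its median ratio was 0.929 in the lowest class and 1.05 in the highest. With the GC and length trend taken out, the ratio was 4.42 for PTCRA, 2.32 for HES1, 1.84 for NRARP, 1.55 for DTX1, 1.54 for NOTCH1 and 1.26 for HES4.

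**Figure D3:**
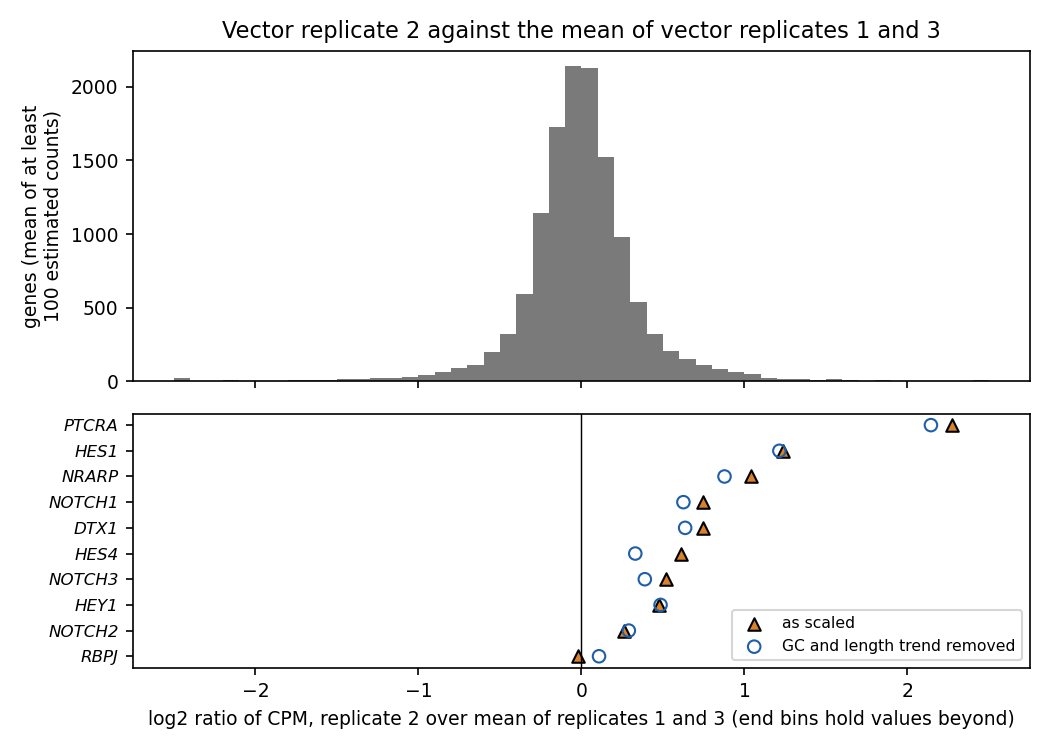
Upper panel, number of genes by log2 ratio of CPM in vector replicate 2 over the mean of vector replicates 1 and 3, for genes whose mean was 100 estimated counts or more; lower panel, the same ratio of the 10 genes, as scaled (triangles) and with the GC and length trend removed (circles). Most genes lie near 0, and PTCRA, HES1 and NRARP lie at ratios of 2.06 to 4.84.

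NOTCH1 and NRARP lie 755 kb apart near the end of the long arm of chromosome 9. Of 54 other protein-coding genes tested within 1 Mb of NOTCH1, 31 fell and 0 rose, and the median log2 fold change was -0.54. Without vector replicate 2, 32 of 53 fell and 2 rose, with a median of -0.49. NOTCH1 ranked 2 from the top among these 55 genes, while NRARP ranked 1 from the bottom. Over all genes tested, 22.6% rose and 23.4% fell, or 24.1% and 25.4% without vector replicate 2. Around NRARP 29 of 52 genes fell and 1, NOTCH1, rose (median -0.48), or 30 of 51 fell and 3 rose without that library (median -0.43). NRARP is likewise among the genes that fell around NOTCH1. The lists share 46 neighbours, 85.2% of the NOTCH1 list and 88.5% of the NRARP list. The part of this shared shift in the change of NRARP was not tested. Around HES4, on the short arm of chromosome 1, 18 of 42 genes fell and 4 rose, with a median of -0.21 beside -1.87 for HES4. Around DTX1, 7 of 17 rose and 6 fell (median 0.15), and HES1 was the lowest of the 9 genes in its interval (median of the others -0.12). Around NOTCH2, 3 of 5 rose and 1 fell (median 0.37), and NOTCH2 ranked 3 from the top of the 6.

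**Figure D4:**
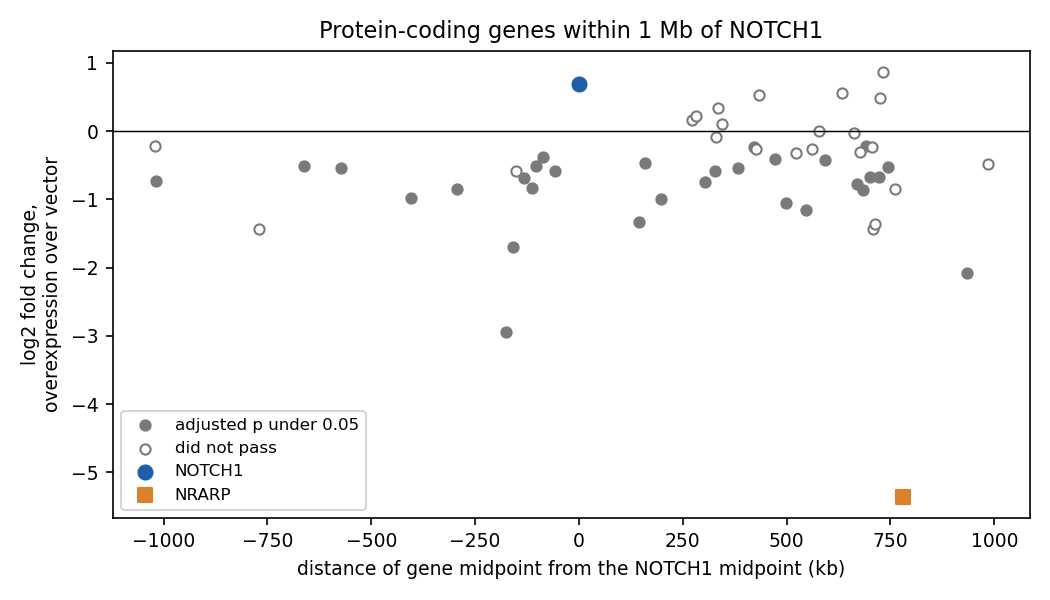
edgeR log2 fold change (overexpression over vector) of the protein-coding genes within 1 Mb of NOTCH1, by distance of the gene midpoints in kb; filled grey points passed the threshold. The neighbours have a median of -0.54, NOTCH1 lies at 0.69 and NRARP at -5.35.

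The rest of the pathway was described by 7 lists of ligands, modifiers, cofactors and other targets. Of 65 listed genes 61 were tested, of which 17 rose and 19 fell around a median log2 fold change of -0.05; without vector replicate 2, 18 rose and 26 fell. DLL4, PSEN2, DTX3 and HES5 did not pass the expression filter. So 59.0% of the listed genes tested passed, or 72.1% without that library, where 46.1% and 49.5% of all genes tested did. With the filter raised to 1 CPM and 50 estimated counts on average, 8791 of all 14917 genes tested passed. Of the listed genes 17 rose and 17 fell there. The share over all genes was higher at that filter, so the excess over 46.1% is not read as a result about the listed genes. Counts by role below stand beside 22.6% upward and 23.4% downward over all genes tested. Without vector replicate 2 these shares were 24.1% and 25.4%. No role was tested as a set.

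Among ligands and NOTCH4, 2 of 5 tested rose and 0 fell. DLL3, an atypical ligand that does not activate Notch in trans, rose from 2.99 ± 0.437 to 6.51 ± 0.365 CPM (SD, n = 3; log2 fold change 1.12 ± 0.17, SE). DLL1, an activating ligand, rose from 0.652 ± 0.0440 to 1.42 ± 0.433 CPM, and its call was lost without overexpression replicate 2 (edgeR adjusted p = 0.0572). JAG1 and JAG2 did not pass, though JAG2 passed downward under 3 of 16 alternatives. Among 8 genes of receptor cleavage tested, 1 rose and 1 fell. Without vector replicate 2, 1 rose and 4 fell, the additions, named after their values were seen, being ADAM17 (edgeR adjusted p = 0.0330), APH1A (0.0413) and FURIN (0.00574). ADAM10, the protease of the first, ligand-induced cut, fell from 310 ± 3.29 to 158 ± 6.28 CPM (log2 fold change -0.97 ± 0.05, SE; edgeR adjusted p = 3.95e-06). APH1B, a gamma-secretase subunit gene, rose from 20.3 ± 1.37 to 29.3 ± 2.07 CPM.

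All 4 called genes of receptor glycosylation fell, of 5 tested. POFUT1, which adds fucose to Notch, fell from 104 ± 9.94 to 75.4 ± 1.19 CPM, and POGLUT1, which adds glucose, from 46.7 ± 2.20 to 35.9 ± 3.16 CPM (SD, n = 3). Among 8 coactivators 2 rose and 2 fell, or 2 and 3 without vector replicate 2. The Mastermind genes moved apart: MAML1 fell from 106 ± 5.14 to 69.8 ± 4.06 CPM and MAML2 rose from 1.29 ± 0.505 to 4.19 ± 0.558 CPM. The log2 fold change of the acetyltransferase gene KAT2B was 0.64 ± 0.11 (SE). SNW1, an RBPJ-binding cofactor, fell by 0.25, and its call was lost with the replicate block (edgeR adjusted p = 0.0546) and without any single library other than overexpression replicate 2 or vector replicate 2.

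Of 13 corepressors 3 rose and 4 fell, or 4 and 6 without vector replicate 2. The Groucho-type corepressor TLE4 fell from 83.2 ± 2.85 to 24.4 ± 1.19 CPM (SD, n = 3; log2 fold change -1.77 ± 0.06, SE; edgeR adjusted p = 9.61e-07), whereas its relative TLE1 rose from 61.2 ± 5.18 to 87.1 ± 0.636 CPM. HDAC2, a histone deacetylase gene, fell from 310 ± 16.3 to 139 ± 6.45 CPM, and NCOR1 rose by 0.22 ± 0.04 on the log2 scale. Of 12 trafficking and turnover genes 7 rose and 4 fell. DTX3L, a Deltex-family ligase gene, rose from 28.4 ± 3.14 to 54.8 ± 1.38 CPM, opposite to DTX1, and CDK8, a kinase that marks the Notch intracellular part for turnover, rose by 0.43 ± 0.08 on the log2 scale. NUMBL, related to the Notch inhibitor NUMB, fell from 16.2 ± 2.14 to 7.93 ± 0.411 CPM, and MIB1, the ligase that lets ligands signal, fell by 0.27.

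Of 10 other reported targets tested, 2 rose and 4 fell, or 2 and 5 without vector replicate 2. IL7R, the interleukin 7 receptor gene, fell from 20.3 ± 4.02 to 3.83 ± 0.863 CPM (SD, n = 3; log2 fold change -2.41 ± 0.21, SE; edgeR adjusted p = 6.52e-05), and SHQ1, a ribonucleoprotein assembly gene, from 140 ± 15.1 to 80.9 ± 1.25 CPM. CCND3, the cyclin D3 gene, rose from 279 ± 26.7 to 373 ± 6.82 CPM. HEY2 rose by 0.66 ± 0.23 on the log2 scale at an edgeR adjusted p = 0.0479, a call lost under 9 of its alternatives. MYC, named after its values were seen, was at 303, 303 and 304 CPM in overexpression and at 381, 620 and 381 CPM in vector. Its log2 fold change was -0.60 ± 0.17 (edgeR adjusted p = 0.0216), or -0.34 ± 0.03 without vector replicate 2 (edgeR adjusted p = 1.14e-05). The call of MYC was lost without overexpression replicate 1 (edgeR adjusted p = 0.0698), 2 (0.0706) or 3 (0.0729). As for NOTCH1, vector replicate 2 was the high library. In the wider lists 6 of 61 genes reached 1.5 times the higher of the other vector libraries there: JAG1, LFNG, HES2, MYC, IGF1R and CR2. Over all genes tested 7.49% did, so this count is not read as a result about the listed genes. Their median ratio to the mean of the other vector libraries was 1.03, beside 1.00 over all genes tested.

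**Figure D5:**
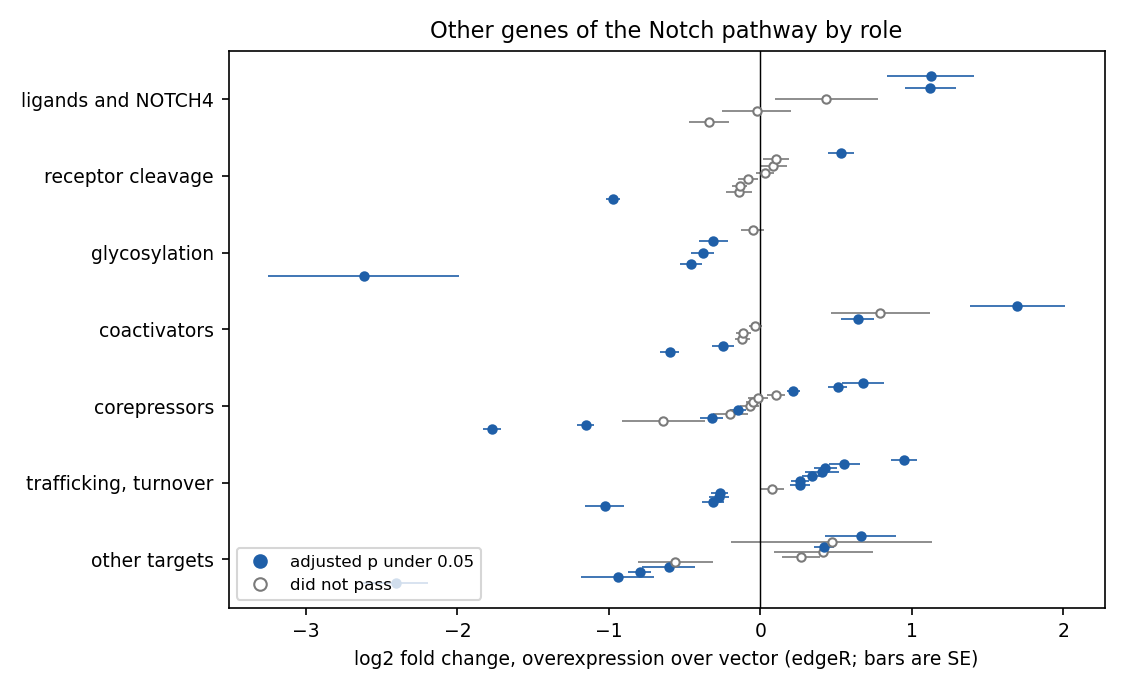
edgeR log2 fold change (overexpression over vector, bars are SE) of the 61 other pathway genes tested, by role; filled points passed an adjusted p of 0.05. Of the glycosylation genes 4 of 5 fell, beside 23.4% of all genes tested, and the other roles hold changes in both directions except the ligands, where 2 rose.

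The 5 genes whose profile over the 6 libraries was nearest to that of NOTCH1 were PTPRF, ZBTB12, TMCC2, MFGE8 and FLT4, at Euclidean distances of 0.0954 to 0.148 between centred log2(CPM + 0.5) values. PTPRF was at 72.8, 71.8 and 76.1 CPM in overexpression and at 39.7, 60.1 and 37.3 CPM in vector, so it shared the high value of vector replicate 2. Nearest to NRARP, the gene of largest fitted change, were ANKRD33B, RGPD3, SLC43A2, ATP9A and BHLHE23, at distances of 0.168 to 0.350. The added 0.5 CPM is above all overexpression values of NRARP and shrinks its difference on this scale. Fitted log2 fold changes of these 5 genes ran from -3.60 to -2.06, beside -5.35 for NRARP, so they did not share the size of its fall. ANKRD33B was at 8.13, 7.93 and 8.21 CPM in overexpression and at 29.3, 55.6 and 27.1 CPM in vector. These are descriptions over 6 libraries, with no test.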

How the data were processed

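The authors' deposited values are whole numbers per gene symbol, taken here for estimated counts; the submitters' processing notes list hg38, StringTie, STAR 2.7.10a, fastp 0.23.2 and DESeq2 as what made them. They were not scaled to a common total, and the annotation, strand setting and counting options are not given in the sources used here. An estimated count of 4 was taken as 1 read pair, which the values do not settle, and the floor as 12 (3 pairs); it covers counting error only.

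edgeR 4.0.16 in R 4.3.3 (default filter, TMM) was fitted to the whole table; group was the sole term of its quasi-likelihood test. Benjamini-Hochberg values were taken over all genes tested, and SEs from the F statistic. The fit was tested on simulated data. Members, lists and tests were chosen with earlier results of these data known. The named genes are the 10 members, PDCD1, from each wider list up to 2 risen and 2 fallen genes with the smallest adjusted p, and the 5 nearest profiles to NOTCH1 and to the member of largest change. The labels name no pairing by replicate number, and none was seen with 3 libraries per group, which does not show that there was none. Alternatives were DESeq2 1.42.0, limma-voom (limma 3.58.1), factors by upper quartile or from DESeq2, leaving out the filter or raising it to 1 CPM and 50 estimated counts on average, the replicate block, values divided by 4 and each library left out. A loess fit per library on GC content and length (81.6% of tested genes had both) was taken out, alone and without vector replicate 2; this was chosen after seeing the data. Positions, lengths and GC content came from GENCODE 29 and figures from matplotlib 3.10.9.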

Additional observations from a re-analysis of the deposited data

How the results depend on the processing

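NOTCH2, RBPJ, HES1, HES4 and DTX1 kept their direction and call under all 16 alternatives, and NRARP under the 15 that tested it. The log2 fold change ranged from 0.68 to 0.85 for NOTCH2, -2.47 to -1.67 for HES1, -2.01 to -1.40 for HES4 and -1.28 to -0.78 for DTX1. With 1 library left out, the number of the 10 genes that rose ran from 1 to 2, the lower count being that without NOTCH1. The number that fell ran from 5 to 7, with NOTCH3 and PTCRA added when vector replicate 1 was left out. HEY1 ran from -0.34 to 0.0106 with 1 library left out, reversing without vector replicate 2, and was at 0.0065 with the GC and length trend removed as well; it was called in no fit. Labels share replicate numbers, but same-numbered libraries did not deviate together (correlations of 0.00521, 0.00125 and 0.0230), and not every library correlated best with its own number. With the replicate block 8690 genes passed, against 9705, and of the 10 genes 2 rose and 5 fell, as without it. The block ended the calls of SNW1 and HEY2, and the wider lists went from 17 higher and 19 lower to 16 and 17. JAG1, never called, was at -0.03 and reversed to 0.0190 with the block, 0.0204 with upper-quartile factors, 0.0114 with the GC and length trend removed and 0.27 with that trend and vector replicate 2 removed; with 1 library left out it ran from -0.20 to 0.25, reversing without vector replicate 2. The stricter filter removed HEY1 and NRARP. The scaling alternatives moved the median of all genes by less than 0.1 on the log2 scale. Depth limits NRARP, whose overexpression values lay under the floor of 12 estimated counts.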
